A study of Homo sapiens with 4 samples.

Results

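Hypoxia-inducible factors (HIFs) and a set of their targets were followed in AT/RT-MYC cells, the MYC subgroup of atypical teratoid/rhabdoid tumors, before and after chemotherapy. The set was given by name and held the 10 genes *HIF1A*, *EPAS1*, *EGLN3*, *VEGFA*, *ADM*, *CA9*, *CA12*, *NDRG1*, *BNIP3* and *ANKRD37*, out of 18449 genes in the count table. Bulk RNA sequencing was available for 4 libraries, a single library for each condition of BT-16 and of CHLA-266, established lines grown out from AT/RT-MYC tumors. Untreated cells received no drug, whereas treated cells received 1 µM doxorubicin, 5 µM etoposide and 1 µM vincristine on consecutive days. By the study's methods most cells died and the treated libraries came from the cells that grew again, so that these libraries describe regrown survivors of 2 established lines grown at 20% oxygen. The untreated libraries held 75087193 (BT-16) and 66192504 (CHLA-266) counts and the treated ones 51489712 and 49849257, in which 15464 to 16079 genes were detected untreated and 17114 to 17815 treated. *SMARCB1*, the gene whose loss defines AT/RT, held 1394 and 1313 counts untreated and 981 and 827 treated, so RNA of this gene was not absent. *MYC*, the name-giving gene of the subgroup, held 14275 and 11515 counts untreated and 6804 and 7505 treated.

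HIFs are transcription factors made of an oxygen-regulated alpha subunit (HIF-1alpha from *HIF1A*, HIF-2alpha from *EPAS1*) and a constitutive beta subunit (ARNT or ARNT2). When oxygen is plentiful, prolyl hydroxylases of the EGLN family mark the alpha subunits for recognition by VHL and for degradation, so that HIF activity is set largely at the protein level, which RNA sequencing does not measure. In low oxygen the alpha subunits accumulate, pair with ARNT and bind short DNA elements with the core ACGTG or GCGTG at genes for glycolysis, angiogenesis, pH control and mitophagy. By the labels all cultures were kept at the same incubator oxygen level, and oxygen at the cells was not measured.

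The start regions of the genes were searched for this core, since the targets moved in both directions. RefSeq promoters of GRCh38.p14, running from 250 bases before to 50 bases after the start site, were matched by symbol for 8 of the 10 genes. *VEGFA* and *NDRG1* had no entry. The letters ACGTG or GCGTG were searched on both strands (as CACGT or CACGC on the other strand), and CACGTG counts on both. At least 1 match was present for 7 of the 8 genes and none for *EGLN3*, while 48.4% of all 35116 promoters of this length held a match. *BNIP3* held 6 matches and *ANKRD37* held 3, numbers reached or exceeded by 0.923% and 10.08% of all promoters. The 200 bases before the RefSeq start site are shown 5′ to 3′ on the gene's strand for *EPAS1* and *ANKRD37*, the HIF subunit gene and the target with calls in opposite directions, for *CA9*, and for *BNIP3* with its cluster of matches. Capitals mark the matches. The regions are chr2:46297207-46297406 (plus), chr9:35673728-35673927 (plus), chr4:185396641-185396840 (plus) and chr10:131981924-131982123 (minus) for *EPAS1*, *CA9*, *ANKRD37* and *BNIP3*. A match is a stretch of letters and was not tested as a binding site.
EPAS1: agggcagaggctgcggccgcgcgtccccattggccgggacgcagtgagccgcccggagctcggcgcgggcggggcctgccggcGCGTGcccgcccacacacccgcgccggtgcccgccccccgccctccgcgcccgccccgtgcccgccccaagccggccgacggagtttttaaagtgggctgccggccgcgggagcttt
CA9: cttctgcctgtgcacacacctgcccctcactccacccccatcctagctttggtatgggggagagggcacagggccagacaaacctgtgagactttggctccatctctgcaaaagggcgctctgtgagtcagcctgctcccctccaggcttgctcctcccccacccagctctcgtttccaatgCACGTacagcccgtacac
ANKRD37: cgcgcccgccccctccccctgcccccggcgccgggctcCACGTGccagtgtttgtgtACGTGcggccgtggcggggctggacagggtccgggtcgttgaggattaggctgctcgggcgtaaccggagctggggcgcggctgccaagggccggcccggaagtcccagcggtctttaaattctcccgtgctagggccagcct
BNIP3: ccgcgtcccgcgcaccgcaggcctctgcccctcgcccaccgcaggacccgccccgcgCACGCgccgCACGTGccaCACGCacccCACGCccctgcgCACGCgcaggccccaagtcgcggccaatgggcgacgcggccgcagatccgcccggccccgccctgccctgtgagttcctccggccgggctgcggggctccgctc

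After treatment, *EPAS1*, *EGLN3*, *NDRG1* and *VEGFA* were upregulated and *ANKRD37* was downregulated, whereas *HIF1A*, *BNIP3*, *CA12*, *ADM* and *CA9* did not pass the test. Treated and untreated libraries were compared over both lines with edgeR's quasi-likelihood test, and a gene was called at a Benjamini-Hochberg adjusted *p* below 0.05 over all 18066 genes with a count. Thus 4 of 10 genes were called higher and 1 of 10 lower, against backgrounds of 16.1% of all genes called higher and 19.1% called lower. These genes and the lists below were chosen with earlier results of these data known, so such shares and medians are a description. In log2 fold change the 10 genes had a median of 0.57 and all genes 0.24, or 0.20 with genes at 0 in both untreated libraries set to the bound that 3 counts in each allow, which moved none of the list medians printed here. Over all genes 2910 were called higher and 3454 lower, a split that scaling moved to 4361 and 1895 with upper-quartile factors and to 3678 and 2353 with library totals. Both lines enter as the 2 samples of each condition, so *p* values measure the spread between these lines, and an exact permutation of 2 against 2 libraries cannot give a two-sided *p* below 0.333. With cell line added as a block, a fit in which each treated library is paired with the untreated library of its line, the calls were 4 higher (background 17.9%) and 2 lower (background 23.7%), the additional call being *BNIP3*. In bulk RNA a lower share of expressing cells and less RNA per cell cannot be told apart.

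**Figure D1:**
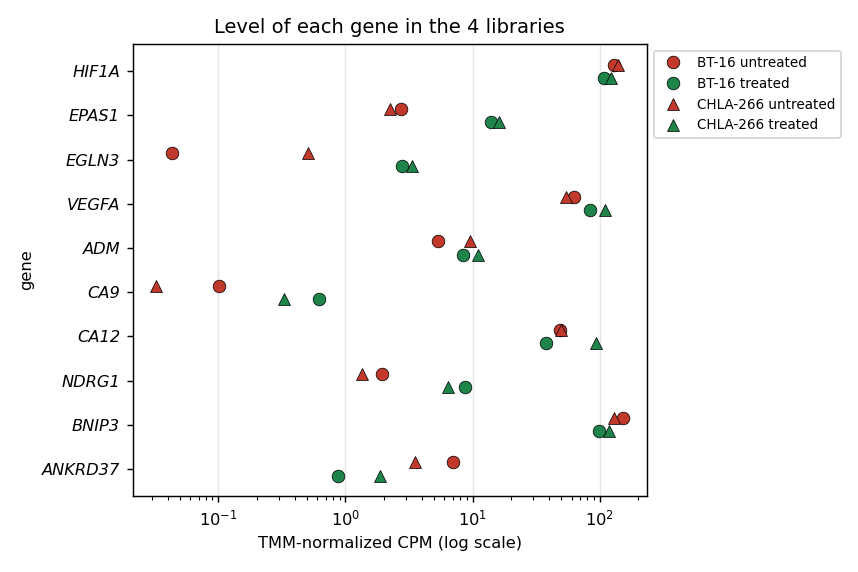
Levels of the 10 genes as TMM-normalized CPM (counts scaled to library size, log axis) in each library, with circles for BT-16, triangles for CHLA-266, red for untreated and green for treated. The treated symbols of EPAS1, EGLN3, CA9, NDRG1 and VEGFA lie to the right of both untreated symbols, those of HIF1A, BNIP3 and ANKRD37 to the left, and those of CA12 and ADM are interleaved with them.

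The alpha subunit genes differed in level and in response. *HIF1A* (chr14:61695513-61748259, plus strand) was measured at 129 CPM in untreated and 108 CPM in treated BT-16 and at 138 CPM in untreated and 122 CPM in treated CHLA-266, where CPM are counts scaled to library size after trimmed-mean (TMM) normalization. Treated libraries were lower in both lines without overlap, yet the difference was small and was not called (log2 fold change −0.21, SE 0.16, adjusted *p* = 0.312). Its sign depended on scaling and became positive with library totals (0.011) and with upper-quartile scaling (0.13). *EPAS1* (chr2:46293667-46386697, plus strand), whose promoter is shown above, rose from 2.74 to 13.9 CPM in BT-16 and from 2.23 to 16.1 CPM in CHLA-266. Both treated libraries lay well above both untreated ones, and the lines were close to each other in each condition. The fitted fold change was 6.04 (log2 2.60, SE 0.31, adjusted *p* = 0.00051), and leaving out any library left the log2 value between 2.45 and 2.75 with every call kept. In such fits 1 arm has a single library, which is assumed to vary like the other arm, so their *p* values rest on the spread of the remaining pair.

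Compared per kilobase of the MANE Select transcript, *HIF1A* exceeded *EPAS1* 61.4-fold in untreated BT-16 and 81.2-fold in untreated CHLA-266. After treatment the ratios were 10.1 and 9.90. The share of *EPAS1* in the summed level of both genes was accordingly 1.60% and 1.22% untreated and 8.98% and 9.17% treated, so that *HIF1A* stayed the more abundant transcript in every library.

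*EGLN3* (chr14:33924227-34462774, minus strand), the prolyl hydroxylase 3 gene and itself a HIF target, held 3 and 31 counts in untreated BT-16 and CHLA-266 and 162 and 174 counts after treatment. The treated lines were alike, whereas the untreated lines stood apart, with BT-16 close to 0. *EGLN3* was called higher (log2 fold change 3.49, SE 0.96, adjusted *p* = 0.0226). Its size rested on the untreated library used, being 6.08 without untreated CHLA-266 and 2.60 without untreated BT-16, with adjusted *p* of 0.00203 and 0.0224. The log2 ratio was 5.79 within BT-16 (95% exact interval 4.44 to 8.30) and 2.71 within CHLA-266 (2.18 to 3.33), where the intervals cover counting error only. With 1 library for each line and condition, a difference of the response between lines has no replicate test.

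Of the secreted ligands, *VEGFA* was called higher and *ADM* was not. *VEGFA* (chr6:43770184-43786487, plus strand), the main angiogenic growth factor, rose from 62.7 to 84.1 CPM in BT-16 and from 54.5 to 109 CPM in CHLA-266. Both treated libraries were above both untreated ones, and the step was larger in CHLA-266, with log2 ratios of 0.42 (0.36 to 0.48) in BT-16 and 1.00 (0.94 to 1.06) in CHLA-266. The fitted log2 fold change was 0.72 (SE 0.18, adjusted *p* = 0.0167), or 1.65-fold. The call was lost without treated CHLA-266 (adjusted *p* = 0.0557) and without untreated CHLA-266 (0.0918). *ADM* (chr11:10305073-10307397, plus strand) encodes adrenomedullin, a vasodilating and angiogenic peptide, and was measured at 5.32 and 8.37 CPM in untreated and treated BT-16 and at 9.62 and 11.1 CPM in CHLA-266. Each line was higher after treatment, but treated BT-16 lay below untreated CHLA-266, so the conditions overlapped and the difference was not called (log2 0.38, SE 0.36, adjusted *p* = 0.416).

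The carbonic anhydrases at the cell surface, which hydrate carbon dioxide and regulate pH, included the most ambiguous genes. *CA12* (chr15:63321378-63381846, minus strand) was measured at 48.6 and 38.1 CPM in untreated and treated BT-16 and at 49.3 and 93.1 CPM in untreated and treated CHLA-266. Starting from nearly equal levels, the lines moved in opposite directions, with log2 ratios of −0.35 (−0.43 to −0.28) in BT-16 and 0.92 (0.85 to 0.98) in CHLA-266, and with library totals the interval in BT-16 included 0 (−0.14 to 0.01). The joint fit did not call it (log2 0.42, SE 0.34, adjusted *p* = 0.351), and this outcome rested on the treated libraries. Without treated BT-16 the log2 fold change was 0.93 (adjusted *p* = 0.00022, with the spread taken from the nearly equal untreated libraries), and without treated CHLA-266 it was −0.35 (adjusted *p* = 0.238).

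*CA9* (chr9:35673928-35681159, plus strand) encodes carbonic anhydrase IX, a widely used marker of hypoxic tumor cells, and held 7 counts in untreated BT-16 and 36 after treatment, against 2 and 17 counts in CHLA-266. Treated libraries were higher in both lines, but at these counts the difference was not called (log2 2.78, SE 1.47, adjusted *p* = 0.167). The counting intervals of the log2 ratio were wide, 1.43 to 4.03 in BT-16 and 1.26 to 6.49 in CHLA-266. For comparison, 388 olfactory receptor genes, which these cells are not known to use, had a 95th percentile of 4.14 and 3.62 counts per kilobase in untreated BT-16 and CHLA-266 and of 30.1 and 21.2 after treatment. *CA9* lay at 4.53 and 1.29 counts per kilobase untreated and at 23.3 and 11.0 treated, below this level in all libraries except untreated BT-16. Its signal therefore could not be set apart from background in either treated library. *EGLN3* was below that level in untreated BT-16 only (1.11 counts per kilobase) and well above it after treatment (59.9 and 64.3). The remaining 8 genes exceeded it in every library. In addition, 571 exonic bases of *CA9* lie opposite exons of *ARHGEF39*, which was downregulated (log2 fold change −2.14, adjusted *p* = 0.00152), and the strand setting of the counting was not given in the sources used here.

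**Figure D2:**
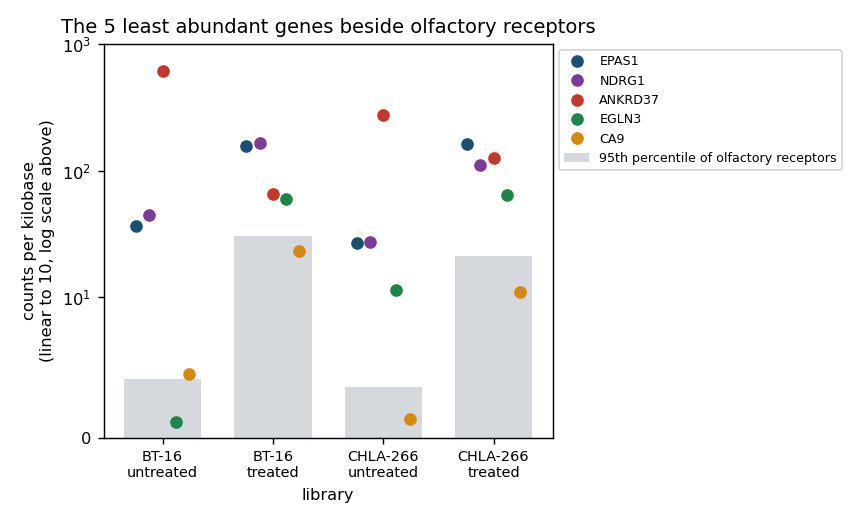
Counts per kilobase of the 5 genes with the lowest mean level, with grey bars giving the 95th percentile of 388 olfactory receptor genes in the same library (axis linear to 10 and logarithmic above). CA9 lies within the bar in both treated libraries and in untreated CHLA-266, EGLN3 lies within it in untreated BT-16, and EPAS1, NDRG1 and ANKRD37 lie above it in each library.

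Among the targets with other roles, *NDRG1* (chr8:133237175-133302022, minus strand), a stress- and differentiation-linked gene long used as a hypoxia marker, rose from 1.94 to 8.65 CPM in BT-16 and from 1.35 to 6.45 CPM in CHLA-266. The rise was alike in both lines and the conditions did not overlap. Its fold change was 4.58 (log2 2.20, SE 0.41, adjusted *p* = 0.00447) and the call was kept without any library (log2 1.96 to 2.48). *BNIP3* (chr10:131967684-131981967, minus strand), a mitophagy receptor with the cluster of core letters shown above, was measured at 154 and 99.5 CPM in untreated and treated BT-16 and at 129 and 118 CPM in CHLA-266. Treated libraries were lower without overlap. The difference was not called (log2 −0.38, SE 0.17, adjusted *p* = 0.119), but passed as lower with the cell line as a block (log2 −0.38, adjusted *p* = 0.0478), as it did in none of the other 9 alternatives that kept all libraries. Among these, DESeq2 with the same block gave 0.150 and the blocked fit over genes with 10 counts in each library gave 0.266 (log2 −0.20). With library totals the log2 ratio within CHLA-266 turned to 0.038. The annotation lists 44 pseudogenes named after *BNIP3*, and reads shared with such copies leave its level uncertain.

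*ANKRD37* (chr4:185396021-185400628, plus strand), an ankyrin repeat gene known as a direct HIF-1 target, was the only downregulated gene of the 10 in the unblocked fit. It dropped from 6.97 to 0.882 CPM in BT-16 and from 3.53 to 1.89 CPM in CHLA-266. Treated libraries were lower in both lines without overlap, with the larger step in BT-16 (log2 ratio −2.97, interval −3.43 to −2.56) than in CHLA-266 (−0.90, −1.26 to −0.55). The fitted log2 fold change was −1.92 (SE 0.55, adjusted *p* = 0.0270). The call was lost without untreated BT-16 (log2 −1.35, adjusted *p* = 0.149) and with upper-quartile scaling (adjusted *p* = 0.0529), and without treated CHLA-266 the log2 value was −2.56 (adjusted *p* = 0.00269). *UFSP2* shares 909 exonic bases with it on the opposite strand and itself was not called (log2 −0.41, adjusted *p* = 0.186).

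**Figure D3:**
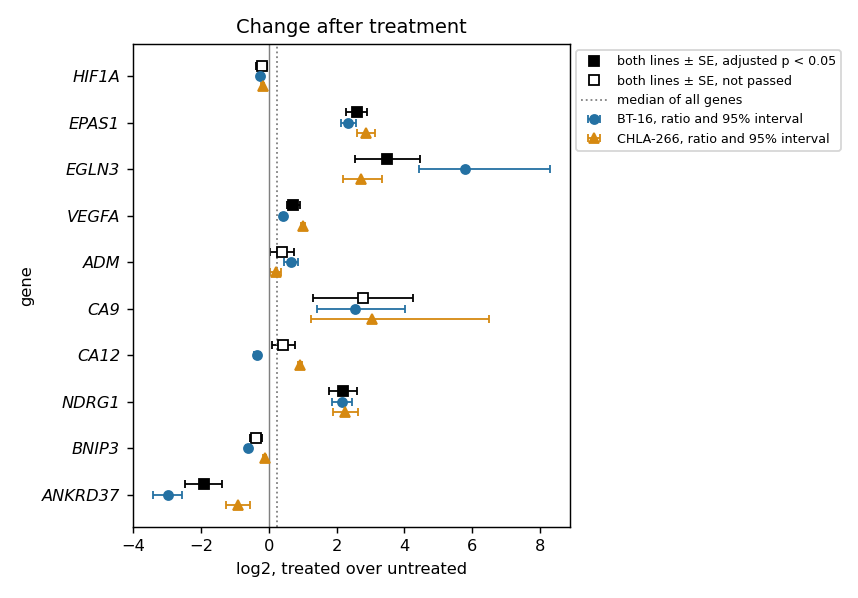
Log2 difference between treated and untreated libraries for the 10 genes, with black squares for the edgeR fit over both lines (bars are SE, filled when adjusted p is below 0.05) and circles and triangles for the ratio within BT-16 and CHLA-266 (bars are 95% counting intervals). The dotted line marks the median of all genes at 0.24, and CA12 is the gene whose lines lie on opposite sides of 0.

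Because scaling shifted all genes together, the changes were also read against the median of all genes, which was 0.24 with TMM, 0.59 with upper-quartile factors, 0.46 with library totals and 0.31 with the size factors of DESeq2. Each scaling moved a gene and the median nearly alike, so the narrow ranges below follow from arithmetic and are no check of a change. Relative to the median, *HIF1A* was at −0.46 to −0.45 and *BNIP3* at −0.62 under these scalings. *EPAS1* was at 2.36, *NDRG1* at 1.96 to 1.97, *EGLN3* at 3.24 to 3.25 and *ANKRD37* at −2.18 to −2.16. *VEGFA* stood at 0.48, *CA12* at 0.16 to 0.18 and *ADM* at 0.13 to 0.14. The median itself depended on the genes kept, being 0.005 among those with at least 10 counts in every library. In that fit the log2 fold changes were 0.90 for *VEGFA*, 0.59 for *CA12*, 0.56 for *ADM*, −0.03 for *HIF1A* and −0.20 for *BNIP3*. *EPAS1* was at 2.78, *NDRG1* at 2.38 and *ANKRD37* at −1.75 there, and *EGLN3* and *CA9* were not included. The places of *CA12*, *ADM*, *HIF1A* and *BNIP3* relative to the median thus rested on this choice.

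By level per kilobase, *BNIP3* led in both conditions with means of 91.6 CPM per kb untreated and 70.5 treated, followed by *HIF1A* (33.8 and 29.2) and *VEGFA* (16.2 and 26.8). The ranges of *HIF1A* and *VEGFA* were separate in untreated but overlapped in treated libraries (27.4 to 31.0 against 23.3 to 30.3). In untreated cells *CA12* (8.03), *ANKRD37* (6.70) and *ADM* (5.01) came next, the range of *ANKRD37* overlapping with both neighbours. *NDRG1* (0.544) and *EPAS1* (0.482) overlapped, as did *EGLN3* (0.101) and *CA9* (0.0433) at the lower end. In treated cells the order after *VEGFA* was *CA12* (10.8), *ADM* (6.52), *EPAS1* (2.91), *NDRG1* (2.50), *ANKRD37* (1.77), *EGLN3* (1.14) and *CA9* (0.307). There *CA12* overlapped with *ADM*, and each of *EPAS1*, *NDRG1* and *ANKRD37* overlapped with the next in order, whereas *CA9* stood below *EGLN3* without overlap. The order depends on the transcript length used. With the merged length of all annotated exons *CA12* came before *VEGFA* in both conditions, *ADM* before *ANKRD37* and *EPAS1* before *NDRG1* in untreated cells, and *CA9* before *EGLN3* in untreated cells.

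The lines were compared with each other too. In an additive edgeR fit of line and treatment 0 of 10 genes passed between BT-16 and CHLA-266, against a background of 2.30% of all genes called in either direction. The smallest *p* among the 10 genes in this edgeR fit were those of *CA12* (log2 −0.65, SE 0.20, adjusted *p* = 0.0910) and *ADM* (log2 −0.63, adjusted *p* = 0.419). Both were lower in BT-16 and neither was called. DESeq2 called 0. *CA12* passed in edgeR when library totals or the size factors of DESeq2 replaced TMM.

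Genes with the most similar course over the 4 libraries were sought among the 12620 genes that reached 10 counts in each library, by the root mean square distance of centred log2 CPM. Nearest to *HIF1A* were *GPAT4* (0.0145), *TBL2* (0.0160) and *PDP2* (0.0164). Nearest to *EPAS1* were *PCDHGC4* (0.0758), *TSPAN1* (0.0786) and *FTCD* (0.0823), and nearest to *VEGFA* were *PHF21A* (0.0124), *CC2D2B* (0.0215) and *AFMID* (0.0241). *NDRG1* was at 0.310 from *EPAS1*, and *BNIP3* at 0.152 from *HIF1A*. These distances rest on 4 libraries and are a description.

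Of 20 genes of the machinery around the alpha subunits, 2 (10%) were called higher and 4 (20%) lower, beside 16.1% and 19.1% of all genes, with a median log2 fold change of −0.19 (0.24 over all genes). *ARNT2*, a beta subunit, fell (log2 −1.75, SE 0.21), as did *RBX1* (−1.69) and *ELOC* (−0.67), parts of the VHL ubiquitin ligase complex, and the chaperone *HSP90AA1* (−1.03). *HIF3A*, the gene of another alpha subunit, rose in BT-16 (32 to 142 counts) and in CHLA-266 (16 to 104 counts; log2 2.61, SE 0.67), but stayed below the olfactory receptor level in both treated libraries (24.2 and 17.8 counts per kilobase), and *SIAH1*, a ubiquitin ligase acting on prolyl hydroxylases, rose as well (0.80, SE 0.24). Calls of *HIF3A* and *ELOC* were lost without untreated CHLA-266 (adjusted *p* = 0.0570 and 0.243, with *ELOC* at −0.42), and that of *SIAH1* was lost without treated CHLA-266 (0.137) or either untreated library (0.124 without BT-16 and 0.0839 without CHLA-266). *ARNT* (log2 −0.36, adjusted *p* = 0.103), *VHL* (0.20, 0.416), *EGLN1* (0.32, 0.497), *EGLN2* (0.47, 0.261) and *HIF1AN* (−0.12, 0.539) did not pass.

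Of 46 further HIF targets outside glycolysis, 10 (21.7%) were called higher and 6 (13.0%) lower, beside 16.1% and 19.1% of all genes. Their median of 0.23 was close to the 0.24 of all genes. With the cell line as a block 15 of the 46 were higher and 6 of the 46 lower, beside 17.9% and 23.7% of all genes. *HMOX1*, heme oxygenase 1, rose in BT-16 (2550 to 20971 counts) and in CHLA-266 (1959 to 17950 counts) (log2 3.36, SE 0.18), and *ANGPTL4* (1.78) and the growth factor gene *TGFA* (3.80) rose too. *FUT11* (−1.23), the oxidoreductase gene *ERO1A* (−0.89) and the adenylate kinase gene *AK4* (−1.08) fell. *STC1* was at 0 in both untreated libraries and at 114 and 24 counts after treatment, at least 26.4-fold higher when untreated libraries are set to 3 counts each, and its call was lost without treated BT-16 (adjusted *p* = 0.0592). It lay below the olfactory receptor level in both treated libraries (29.5 and 6.20 counts per kilobase). By contrast, 9 of 17 glycolytic targets were called lower and 0 higher in edgeR, with a median of −1.03. No glycolytic gene was higher at an unadjusted *p* below 0.05 either (0 of 17), whereas DESeq2 called 2 higher, and the blocked edgeR fit called 2. *PFKP* (−2.82, SE 0.19), *LDHA* (−1.66, SE 0.20) and *PFKL* (−1.42, SE 0.19), encoding phosphofructokinases and lactate dehydrogenase A, had the smallest adjusted *p*. Thus *ANKRD37* shared its direction with these glycolytic genes and *EPAS1*, *NDRG1*, *EGLN3* and *VEGFA* did not. All 10 of 10 proliferation markers were downregulated in the same libraries, with a summed level of 4265 and 4208 CPM untreated and 226 and 209 CPM treated, and their part in these results was not tested.

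**Figure D4:**
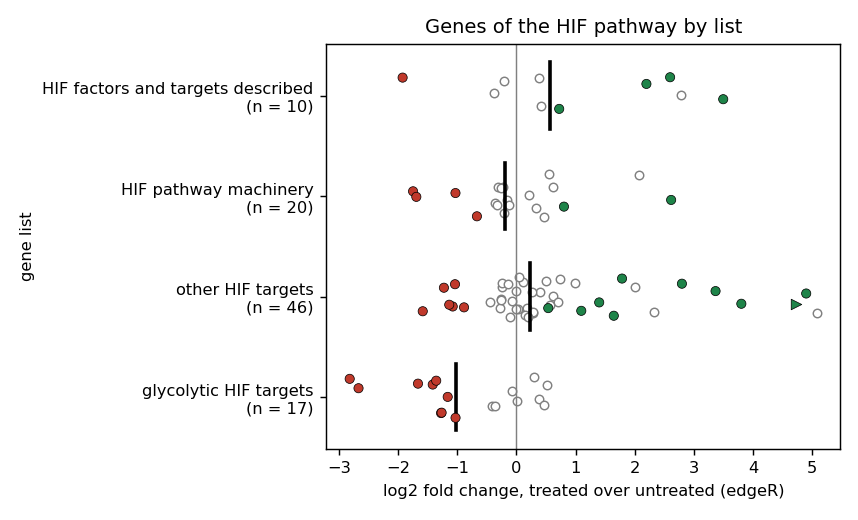
Log2 fold changes (edgeR, treated over untreated) of the genes in 4 lists, with filled green symbols called higher, filled red symbols called lower and open symbols not called; the black bar is the median of the list. The triangle marks STC1 at its lower bound, and the glycolytic list has its median at −1.03 while the other medians lie between −0.19 and 0.57.

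Genes related to the ligands gave a mixed picture as well. Of 14 VEGF and adrenomedullin ligands and receptors, *VEGFA* and *ADM* not counted, 4 (28.6%) were called higher and 2 (14.3%) lower. Over all genes 16.1% were called higher and 19.1% lower. The median log2 fold change was 1.72 (0.24 over all genes). *ADM2*, *CALCA*, *FLT1*, *KDR*, *RAMP1*, *RAMP2*, *RAMP3* and *VEGFC* exceeded the olfactory receptor level in at most a single treated library. This median therefore rests in part on genes near background. *NRP2*, a VEGF co-receptor, rose in BT-16 (14 to 435 counts) and in CHLA-266 (8 to 515 counts) (log2 5.69, SE 0.50). The VEGF receptor gene *FLT1* rose from 9 to 84 and from 8 to 78 counts (3.48, SE 0.83), its call being lost without treated CHLA-266 (adjusted *p* = 0.0565), and at 11.8 and 11.0 counts per kilobase treated it lay below the olfactory receptor level in both lines. The adrenomedullin receptor gene *CALCRL* rose (0.87, SE 0.21), a call lost without untreated CHLA-266 (adjusted *p* = 0.0546). *FLT4* (−2.71, SE 0.23) and the ligand gene *PGF* (−1.89, SE 0.36) fell. Since endothelial cells carry VEGF receptors, their markers were measured too. Of 10 endothelial markers 4 (40%) were called higher and 0 lower, beside 16.1% and 19.1% of all genes. Their summed levels were 2.75 and 1.58 CPM untreated and 16.5 and 11.1 CPM treated, and *EMCN* was at 0 in all libraries except treated CHLA-266. The called markers were *VWF* (45 to 405 and 40 to 216 counts in BT-16 and CHLA-266), *CDH5* (6 to 95 and 0 to 58), *TIE1* (2 to 106 and 2 to 8) and *ROBO4* (16 to 105 and 0 to 114). All except *VWF* were below the olfactory receptor level in 1 or both treated libraries. *TIE1* (log2 4.93) was at 2.25 without treated BT-16 and was not called with the cell line as a block (adjusted *p* = 0.0612). Of 10 macrophage markers 3 (30%) were called higher and 0 lower, beside the same shares of all genes. Their sums were 2.62 and 3.30 CPM untreated and 9.89 and 9.28 CPM treated, and *CD68* was at 0 in both treated libraries. The called markers were *ITGAM* (4 to 111 and 4 to 196 counts), *AIF1* (0 to 27 and 0 to 55) and *CD163* (8 to 56 and 0 to 63). *CD163* was below the olfactory receptor level in both treated libraries (13.8 and 15.5 counts per kilobase). *ITGAM* was below it in treated BT-16 only (23.5 counts per kilobase), and *AIF1* was above it in both. The part of endothelial and macrophage markers in the receptor changes was not tested.

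Of 17 other carbonic anhydrases and acid exporters, 3 (17.6%) were called higher and 2 (11.8%) lower, beside 16.1% and 19.1% of all genes. The median log2 fold change was 1.15 (0.24 over all genes). *CA1*, *CA3*, *CA5A*, *CA6*, *CA7*, *CA8*, *CA10*, *CA13* and *SLC4A4* exceeded the olfactory receptor level in at most a single treated library. This median therefore rests in part on genes near background. With the cell line as a block 2 of the 17 genes were higher (background 17.9%) and 3 lower (background 23.7%). There *CA5A* lost its call (adjusted *p* = 0.0783) and the lactate transporter chaperone gene *BSG* gained one as lower (log2 −0.49, adjusted *p* = 0.00840). *CA2* rose in BT-16 (56 to 340 counts) and in CHLA-266 (12 to 164 counts) (log2 3.15, SE 0.73), with 4.52 without untreated BT-16 and 2.47 without untreated CHLA-266. The bicarbonate transporter gene *SLC4A7* rose (0.84, SE 0.28), but its call was lost without treated CHLA-266 (0.30, adjusted *p* = 0.285) and without either untreated library (0.125 without BT-16 and 0.0996 without CHLA-266). *CA5A* was at 0 in both untreated libraries and at 24 and 22 counts after treatment, at least 9.09-fold higher with the floor of 3 counts in each untreated library, and its call was lost whenever any of the 4 libraries was left out (adjusted *p* from 0.0742 to 0.114). Its treated levels of 21.6 and 19.8 counts per kilobase were below the olfactory receptor level. The lactate transporter gene *SLC16A1* fell (−1.04, SE 0.21), as did *CA4* (−1.81, SE 0.45), which was at −1.29 without untreated BT-16 (adjusted *p* = 0.0743) and at −2.57 without treated BT-16. Of 3 relatives of *NDRG1*, *NDRG4* rose in BT-16 (10178 to 42785 counts) and in CHLA-266 (8370 to 38864 counts) (2.39, SE 0.17). *NDRG2* rose from 8 to 76 and from 2 to 52 counts (3.91, SE 1.06), although without treated BT-16 or untreated CHLA-266 its call was lost (adjusted *p* = 0.0684 and 0.0618) and without untreated BT-16 it was at 5.06. At 25.5 and 17.5 counts per kilobase treated it, too, lay below the olfactory receptor level. *NDRG3* was not called (0.06, SE 0.15).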

How the data were processed

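Bulk RNA was sequenced in 4 libraries, each made from 10 ng RNA with a stranded kit. Per the labels and the study's methods, the authors demultiplexed with bcl2fastq 2.20, trimmed adapters, aligned with STAR to hg38, counted reads per gene, removed genes of the sex chromosomes and deposited estimated counts per gene symbol. These expected counts were used as deposited, 5 values in 2 genes being rounded. The deposited log2 variance-stabilized values of 17553 genes served an alternative limma fit. Both files map to all 4 libraries.

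Members and gene lists were chosen with earlier results of these data known. The 10 genes, every called machinery gene and the 3 smallest adjusted p in each direction of the other lists were named. edgeR 4.0.16 in R 4.3.3 (TMM, quasi-likelihood, all 18066 genes above 0) compared treated with untreated libraries. DESeq2 1.42.0, limma 3.58.1, other scalings, filters and left-out libraries were alternatives. Deviations of libraries from the same cell line correlated across genes (r = 0.308, 12439 genes), and the shared line pairs them. Ratios within a line used 0.5 added counts and exact 95% binomial intervals. Levels per kilobase used MANE Select lengths of GENCODE 44, and promoters RefSeq (GRCh38.p14). The fits were tested on simulated data. There edgeR without the block missed the changed genes when the lines were given means of their own, and the blocked fit recovered them. Those simulations changed few genes and used a single dispersion for all, so they do not give the power of the tests here. The depth of 49849257 to 75087193 counts limits low genes such as *CA9*.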

Additional observations from a re-analysis of the deposited data

Results flagged for a closer look

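*CA12* was the gene of the 10 whose lines moved in opposite directions after treatment, and this was why it was singled out. Its log2 ratio of treated over untreated was −0.353 within BT-16 and 0.918 within CHLA-266. The difference between the lines was not tested, since each line and condition has 1 library.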

How the results depend on the processing

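In the fit with the replicate block, which treats the libraries of a cell line as paired, 2 of the 10 genes were lower in place of 1, and 2 glycolytic targets were higher in place of 0 (3 in DESeq2 with the block), and of the other counts compared none moved by over 1.5 times. With upper-quartile scaling 0 of the 10 genes and 1895 of all genes were lower (4361 higher), and 5 machinery genes, 20 further targets and 3 glycolytic targets were higher. With library totals 16 further targets and 2 glycolytic targets were higher (all genes 3678 higher, 2353 lower), DESeq2 called 2 glycolytic targets higher and a minimum of 10 counts in every library 1. *HIF1A* turned to 0.13 with upper-quartile scaling and 0.011 with library totals, and within BT-16 to 0.037 with totals, as did *BNIP3* within CHLA-266 (0.038). *CA12* turned to −0.35 without treated CHLA-266, the lowest of its values without 1 library, the highest being 0.93. The difference between lines for *ANKRD37* turned to 0.030 with totals and 0.0073 with the count minimum. Between lines, 1 of the 10 genes was lower in BT-16 with DESeq2 size factors and with totals, in place of 0. Leaving out 1 library at a time gave 0 to 1 lower genes among the 10, 0 to 3 higher machinery genes and 0 to 1 higher glycolytic targets. Of the values that answer a comparison, 120 stayed within 1.5 times and 20 moved. The causes were not tested, and low counts limit *CA9* and *EGLN3*.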
